A study of Mus musculus with 25 samples.

Results

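Cholesterol is made in the liver from acetyl units through a chain of enzymes and is then stored, exported into bile or passed to lipoproteins. The genes described here are 30 that carry or control these steps: 19 enzymes of the synthesis pathway, 4 genes that sense sterols and set the rate of synthesis, and 7 genes of sterol transport and storage. The 19 enzymes include Ggps1, of a side branch, and the last 7 genes include the receptor gene Nr1h3. The 30 genes were chosen by gene name from a list of members. All 30 stood in each of the 5 deposited tables, among 30524 genes listed in any table, and all 30 passed the filter on low values. Assigned reads per library for a single member ran from 29 (Fdps) to 11576 (Insig2).

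RNA was sequenced from the liver of 25 C3H/HeJ mice, a strain prone to liver cancer, labelled as males and 5 weeks old at the start. Of these mice, 20 had received diethylnitrosamine (DEN), a carcinogen that hepatocytes turn into a DNA-alkylating agent, at 25 mg/kg, 2 injections a week for 3 weeks in each of 5 cycles over 4 months. The Untreated group (n = 5) received saline in place of DEN, and after a month without injections it received the drug vehicles. The DEN group (n = 6) was given DEN and then vehicles. The DEN_CAF group (n = 5) was given DEN and then caffeine, an adenosine receptor antagonist, at 50 mg/kg 3 times a week by gavage. The DEN_SOR group (n = 4) was given DEN and then sorafenib, a kinase inhibitor used against liver cancer, at 30 mg/kg 2 times a week by gavage in corn oil with 2% DMSO. The DEN_CAF_SOR group (n = 5) was given DEN and then both drugs in the same regimens. Drugs or vehicles were given for 3 weeks, and the labels allocate 6 animals to each group. Which part of the liver was taken, tumour or surrounding tissue, is not given in the sources used here.

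In hepatocytes the pathway is under the control of SREBP2, a transcription factor made as a precursor in the membrane of the endoplasmic reticulum. The precursor is bound to the escort protein SCAP. When membrane cholesterol is high, the INSIG proteins hold SCAP in place, and when it falls, SCAP carries SREBP2 to the Golgi, where proteases release the part that enters the nucleus and switches on the synthesis genes. Surplus sterols are sensed by the liver X receptors, which switch on the exporters ABCA1 and ABCG5/ABCG8.

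The promoters of synthesis genes are known to carry the binding sites through which this control works, and 5 stretches that end at the base before the start of transcription are shown for that reason. They are from RefSeq on build GRCm38.p6, in which 24 of the 30 members had a window of 300 bases (Fdft1, Fdps, Scarb1, Soat2, Sqle and Stard4 had none). Capitals mark CCAAT, the box bound by NF-Y, a cofactor of SREBP2, on either strand (ATTGG is its reverse), and in Hmgcs1 also the SREBP motif. Hmgcs1 (chr13:119690101-119690350, + strand) holds TCACNCCAC at -137 from the start site, which there contains the sterol regulatory element core CACCCCAC, and 3 CCAAT boxes. Mvk (chr5:114444069-114444268, + strand) holds 5 boxes, Msmo1 (chr8:64733579-64733778, - strand) holds 3, and Idi1 (chr13:8885456-8885605, + strand) holds 2. The stretch named Abcg5-Abcg8 (chr17:84683012-84683120, read on the + strand towards Abcg8) is the whole interval of 109 bases between the start sites of both exporter genes, which are read away from each other, and it holds no CCAAT box.
Hmgcs1: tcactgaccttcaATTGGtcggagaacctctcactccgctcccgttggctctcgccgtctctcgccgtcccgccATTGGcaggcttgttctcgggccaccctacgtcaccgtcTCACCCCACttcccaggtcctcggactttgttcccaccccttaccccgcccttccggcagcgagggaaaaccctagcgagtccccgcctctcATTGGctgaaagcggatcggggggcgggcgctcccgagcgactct
Mvk: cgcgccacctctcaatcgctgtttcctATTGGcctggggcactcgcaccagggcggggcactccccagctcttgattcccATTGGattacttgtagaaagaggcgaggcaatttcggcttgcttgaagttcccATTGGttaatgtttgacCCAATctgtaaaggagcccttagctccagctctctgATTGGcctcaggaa
Msmo1: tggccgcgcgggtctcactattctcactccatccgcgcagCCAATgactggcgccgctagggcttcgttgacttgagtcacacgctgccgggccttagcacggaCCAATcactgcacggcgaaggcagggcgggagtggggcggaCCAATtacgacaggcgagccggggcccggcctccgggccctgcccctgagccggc
Idi1: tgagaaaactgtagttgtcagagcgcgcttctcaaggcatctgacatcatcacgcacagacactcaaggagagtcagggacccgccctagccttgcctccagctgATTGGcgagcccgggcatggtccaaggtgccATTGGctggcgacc
Abcg5-Abcg8: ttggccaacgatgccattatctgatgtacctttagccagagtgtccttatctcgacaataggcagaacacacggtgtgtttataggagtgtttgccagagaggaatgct

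Over the windows, searched on both strands, CCAAT was found for 20 of the 24 members (83.3%) and for 15 of the 16 enzymes among them, against 41.1% of 27025 genes. The Sp1 box GGGCGG was found for 19 of the 24 (79.2%), against 38.2% of genes. The core CACCCCAC was found for 2 (Hmgcs1 and Acat2), against 3.30% of genes, and the overlapping motif TCACNCCAC for Hmgcs1 alone, against 1.44%. A match is a description of the letters in this window and not a measured site.

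Several libraries stood apart. Total assigned reads ran from 14750278 to 21992613 per library, and the mitochondrial share of reads from 5.65% to 34.8%, the 8 highest shares, from 13.5% up, all in libraries numbered 3 or 4 within their group. Xist, which females transcribe from their inactive X, had 13370 to 29770 reads in Untreated libraries 3, 4 and 5 and at most 21 in every other library, so these 3 libraries go against the label. DEN 4 had 132 reads of the Y-linked Ddx3y, against 1181 to 1604 in the other DEN libraries, and a summed FPKM of 1285 for the tumour markers Afp, Gpc3 and H19, with DEN 3 next in that group at 214 and the other 4 from 4.95 to 23.5. The hepatocyte markers (6 of 6 detected in every group) summed to 25440 FPKM or more in each library, in keeping with the label liver. The sum hides differences between markers. DEN 4 had the highest Alb and Apoa1 of any library (58618.5 and 22553.8 FPKM). Its Cyp2e1 was 45.3 and its Cps1 52.7, against 554 to 3427 and 165 to 513 in the other DEN libraries. Its Ttr and Serpina1e lay within the range of the other DEN libraries. Levels below are in FPKM, reads scaled to library size and gene length. Differences are log2 fold changes on the log2(FPKM + 1) scale with their standard error (SE), from limma over 12741 genes with Benjamini-Hochberg adjustment at 0.05.

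**Figure D1:**
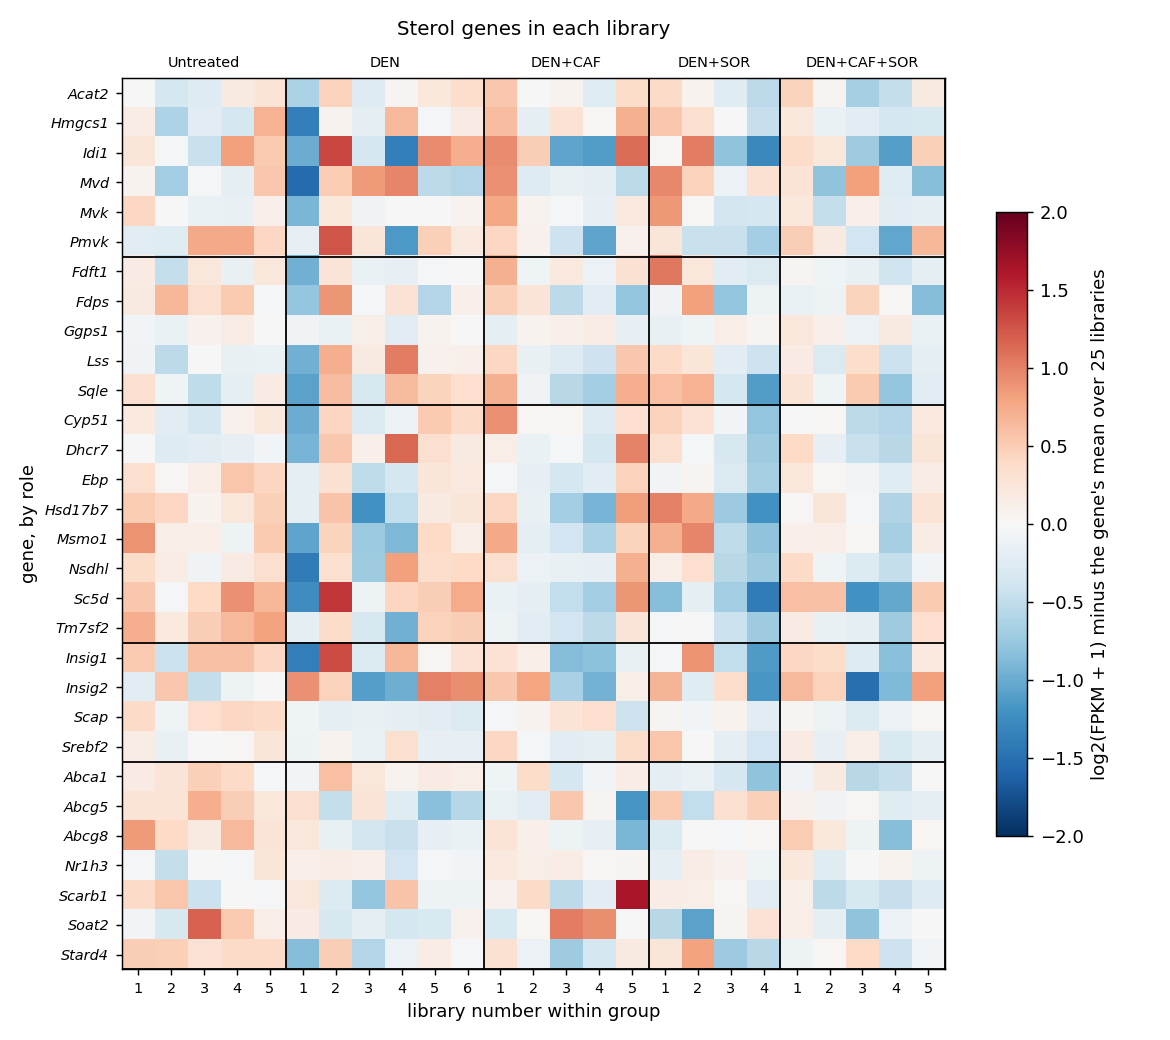
Level of the 30 genes in the 25 livers: colour shows log2(FPKM + 1) minus the gene's mean over all libraries, columns are libraries by number within group, and rows are genes by role (from the top: mevalonate steps, isoprenoid and squalene steps, lanosterol to cholesterol, sensing, transport and storage). Many enzymes have the same colour within a column, as in DEN 1, where all 19 lie below the DEN median.

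Between DEN and Untreated livers 1 of the 30 genes was called, Scap, the sterol sensor that escorts SREBP2, which fell by 0.47 (SE 0.12, adjusted p = 0.0454). Over all genes 2.04% were called in this comparison (260 of 12741), so 1 of 30 is near the background. Of the 30 members, 22 had a negative difference and 8 a positive one, with a median of -0.17 against 0.03 over all genes tested. Over all genes, 128 calls were higher and 132 lower in DEN, with TMM scaling (a trimmed mean of ratios between libraries) 140 and 297, and with mitochondrial reads left out of the total 218 and 103. With TMM scaling 26 of 30 members were negative, with mitochondrial reads left out 19, and without the 3 Untreated libraries with Xist reads 17. A change of scaling moves all genes, and the share of all genes that was negative was not counted under these settings. At an unadjusted p under 0.05 there were 5 members, Scap, Abcg8, Abcg5, Tm7sf2 and Stard4, all lower in DEN. The share of all genes under that unadjusted threshold was not counted, here or in the comparisons below. Such counts therefore say nothing particular about sterol genes. edgeR called 2 members on the recovered reads (Scap and Abcg8), with 4.89% of all genes called, and DESeq2 the same 2, with 8.55%. Cholangiocyte markers (4 of 4 detected in both groups) summed to 0.828 to 2.44 FPKM in Untreated and 3.34 to 9.80 in DEN without overlap, and Kupffer cell markers (6 of 6) to 55.0 to 120 and 20.9 to 99.4, with medians of 92.0 and 51.5. Taken singly, Epcam and Sox9 did not overlap between these groups, while Krt19 and Krt7 did. DEN 4 lay inside the Untreated range for both (Krt19 at 1.07 FPKM and Krt7 at 0.0575). The part of either cell type in the members' differences was not tested. In bulk tissue, fewer cells of a type and less RNA per cell cannot be told apart. Without DEN 1 the median was -0.01, and without DEN 2 it was -0.28.

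None of the 30 was called by limma in any comparison of the drug arms. For DEN_CAF against DEN, with 0.00785% of all genes called, 0 members were called and 0 had an unadjusted p under 0.05. For DEN_SOR against DEN, 0 were called and 2 had an unadjusted p under 0.05 (Abca1 and Sc5d), and for DEN_CAF_SOR against DEN 0 and 1 (Abca1). Neither DEN_CAF_SOR against DEN_SOR nor DEN_CAF_SOR against DEN_CAF had a member under 0.05 before adjustment, and the interaction of caffeine and sorafenib, the difference between the combined effect and the sum of the single ones, had 1 (Fdft1). In these 5 comparisons 0% of all genes were called by limma, so the count of 0 says nothing particular about sterol genes. The test for any difference among the 5 groups called 0.95% of all genes and 0 members, with 4 under 0.05 before adjustment (Abca1, Scap, Tm7sf2 and Abcg8). Counting models on the recovered reads called 0 members in every one of the 6 drug comparisons as well. Over all genes edgeR called 0% in each of them, and DESeq2 called 0.268% for sorafenib and 0.0586% for caffeine, each against DEN, with 0.0492% for the interaction and 0% in the other 3. In the test over 5 groups edgeR called 0 members with 2.44% of all genes, and DESeq2 called 3 (Abca1, Tm7sf2 and Scap) with 6.2%. The members' median differences were 0.03 for caffeine, -0.02 for sorafenib and -0.07 for both drugs, each against DEN, beside all-gene medians of 0.02, -0.02 and 0.01. Positive differences numbered 19 for caffeine (15 with TMM scaling), 14 for sorafenib and 10 for both drugs. For DEN_CAF_SOR against DEN_SOR they numbered 15 (10 with mitochondrial reads left out of the total), and for the interaction 15 (9 with those reads left out). These comparisons share the DEN libraries.

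**Figure D2:**
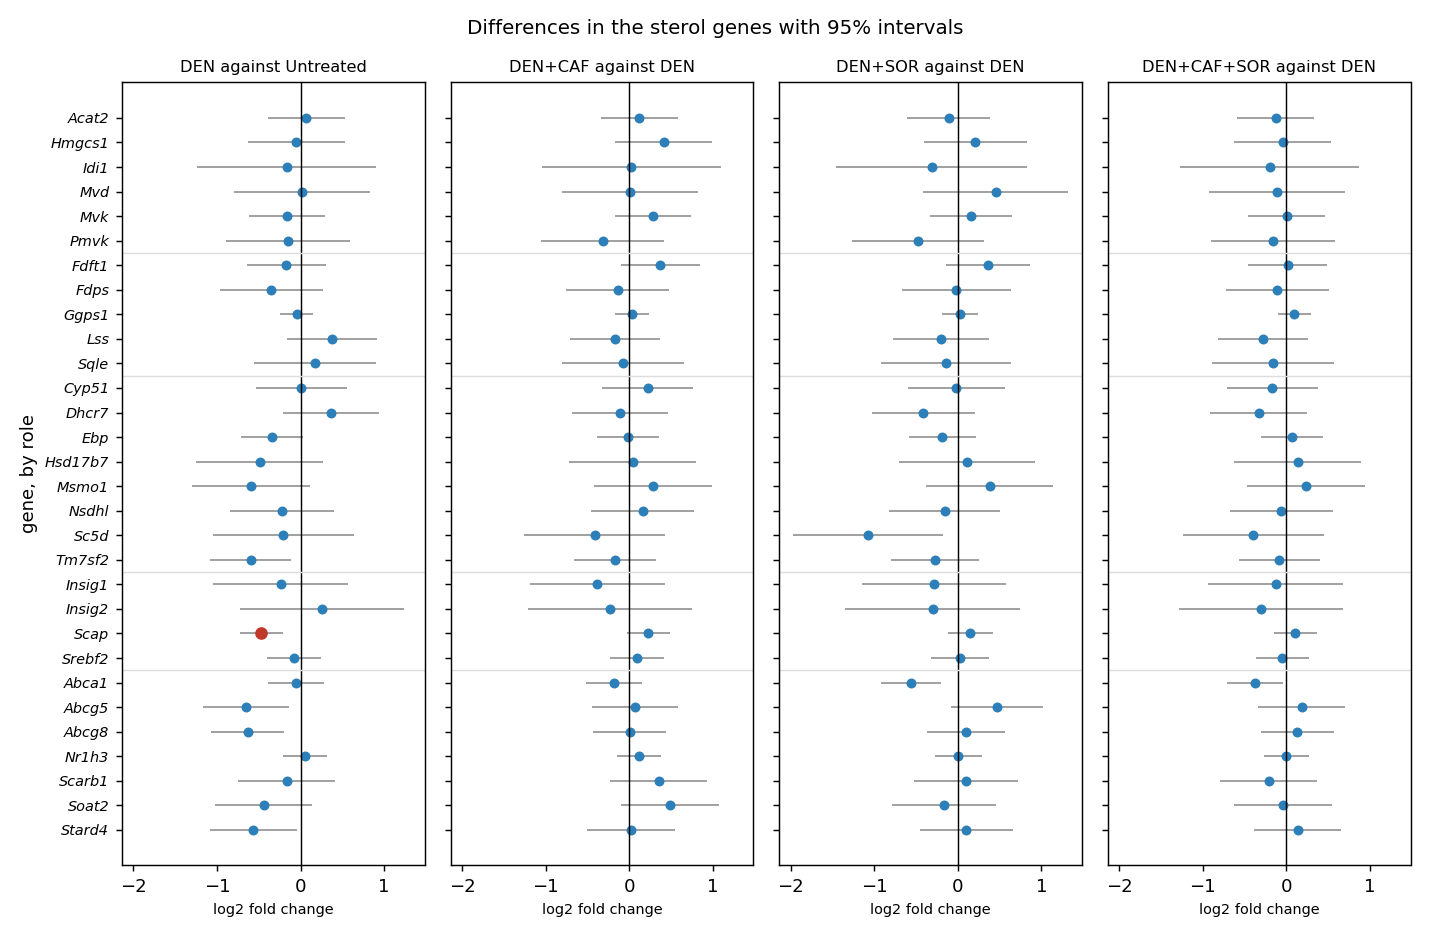
Log2 fold change of each gene (points) with its 95% interval (lines), on the log2(FPKM + 1) scale, for the 4 comparisons named above the panels, with genes by role from top to bottom as in the plot of levels. Red marks Scap, the single call at an adjusted p under 0.05, and the other intervals that exclude 0 are those of Abcg8, Abcg5, Tm7sf2 and Stard4 for DEN against Untreated of Abca1 and Sc5d for DEN_SOR against DEN, and of Abca1 for DEN_CAF_SOR against DEN.

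The 6 genes of the mevalonate steps turn acetyl-CoA into the isoprene unit. In DEN against Untreated 2 were higher and 4 lower, with a median of -0.10 and a lowest adjusted p of 0.779. Hmgcs1 (chromosome 13, 120151915 to 120169796, GRCm39), which makes HMG-CoA, the precursor of mevalonate, was at 50.2, 29.2, 39.1, 35.2 and 73.6 FPKM in Untreated 1 to 5 and in DEN from 16.9 to 71.0 with a median of 45.8. It was at 69.7, 39.8, 55.3, 46.0 and 74.9 in DEN_CAF, 65.7, 56.4, 44.8 and 32.6 in DEN_SOR and 52.5, 41.0, 38.7, 35.1 and 36.0 in DEN_CAF_SOR. The groups overlapped throughout, and the lowest liver of all, DEN 1, stood in the same group as one of the highest, DEN 4. DEN differed from Untreated by -0.05 (SE 0.28), with a 95% interval from -0.63 to 0.53. For DEN_CAF against DEN the difference was 0.41 (SE 0.28, adjusted p = 1.00) and without DEN 1 it was 0.16. DEN_CAF_SOR differed from DEN_CAF by -0.46 (adjusted p = 1.00).

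Pmvk, the kinase that adds the second phosphate to mevalonate, was at 19.9, 19.7, 40.2, 40.3 and 31.5 FPKM in Untreated and in DEN from 9.94 to 57.4 with a median of 27.5. It was at 31.5, 24.8, 17.3, 10.7 and 25.0 in DEN_CAF, 27.7, 16.9, 16.8 and 14.2 in DEN_SOR and 33.2, 26.5, 17.7, 10.9 and 37.5 in DEN_CAF_SOR. Untreated livers with Xist reads (31.5 to 40.3) lay above those without (19.7 and 19.9), a split without overlap that 5 of 30 members and 32.5% of all genes tested showed. DEN_SOR differed from DEN by -0.48 (SE 0.38, adjusted p = 0.912), and without DEN 2 by -0.26. Mvd, the decarboxylase that follows, was at 14.6, 8.17, 13.5, 12.2 and 20.7 FPKM in Untreated and in DEN from 4.15 to 28.4 with a median of 14.8. It was at 27.2, 11.4, 12.5, 12.0 and 9.28 in DEN_CAF, 28.0, 19.6, 12.7 and 17.3 in DEN_SOR and 16.9, 7.51, 25.4, 11.6 and 7.24 in DEN_CAF_SOR, and DEN spanned the widest range. DEN_CAF_SOR differed from DEN_SOR by -0.56 (SE 0.44, adjusted p = 1.00), and without DEN_SOR 1 by -0.37.

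Of the remaining mevalonate genes, Idi1, the isomerase that activates the isoprene unit, varied most among all 30, from 1.30 to 13.9 FPKM, with a within-group SD of 0.92 on the log2 scale. The tables list 3 pseudogenes named after it (Idi1-ps1, Idi1-ps2 and Idi1-ps5), so reads could have been split among them. Acat2, the thiolase of the first step, ran from 16.5 to 39.5 FPKM, and mevalonate kinase (Mvk) from 4.28 to 17.0.

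The 5 genes of the isoprenoid and squalene steps build squalene and close it into lanosterol, apart from Ggps1, which belongs to a side branch. They had 2 higher and 3 lower members in DEN against Untreated, with a median of -0.05 and a lowest adjusted p of 0.51. Fdft1, squalene synthase, was at 42.3, 26.8, 44.0, 33.9 and 44.0 FPKM in Untreated and in DEN from 18.9 to 45.2 with a median of 35.6. It was at 61.8, 35.4, 43.0, 34.7 and 46.6 in DEN_CAF, 79.0, 44.1, 31.8 and 30.5 in DEN_SOR and 39.1, 35.3, 33.7, 28.3 and 32.6 in DEN_CAF_SOR. The highest livers were those numbered 1 of the groups given a single drug, and DEN_CAF_SOR was the narrowest group (33.8 ± 3.93, SD). The interaction of the drugs was -0.71 (SE 0.34, adjusted p = 0.992), and without DEN_SOR 1 it was -0.43. Without the libraries numbered 3 and 4 it was -1.21 and within them -0.20. Fdft1 overlaps Ctsb on the opposite strand, and the strand setting of the counting is not given in the sources used here.

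Sqle, squalene epoxidase, an oxygen-dependent step, was at 13.5, 9.96, 7.17, 9.29 and 12.0 FPKM in Untreated and in DEN from 4.52 to 17.0 with a median of 14.3. It was at 18.1, 10.2, 6.91, 6.25 and 18.2 in DEN_CAF, 16.7, 17.8, 8.17 and 4.38 in DEN_SOR and 13.1, 9.99, 15.7, 5.80 and 8.96 in DEN_CAF_SOR. In DEN_SOR livers 1 and 2 lay above livers 3 and 4, and the groups overlapped. In DEN the level differed from Untreated by 0.17 (SE 0.35), with a 95% interval from -0.56 to 0.90. Lss, which closes the ring, was highest in DEN 4 (13.5 FPKM) and lowest in DEN 1 (2.66). Fdps, the farnesyl diphosphate synthase, had the lowest median of all 30, 1.49 FPKM, from 0.38 to 3.67. Ggps1, which makes the diphosphate used to anchor small GTPases, was the least variable member (1.86 to 2.92 FPKM, within-group SD 0.14), and its gene overlaps Arid4b.

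The 8 genes from lanosterol to cholesterol had the lowest median of the synthesis steps in DEN against Untreated, -0.28, with 2 higher and 6 lower, and 1 under an unadjusted p of 0.05. That gene was Tm7sf2 (chromosome 19, 6112851 to 6118403, GRCm39), a sterol reductase of the nuclear envelope and endoplasmic reticulum. Its level was 43.7, 29.8, 36.6, 41.0 and 46.1 FPKM in Untreated 1 to 5, and in DEN it ran from 12.8 to 36.9 with a median of 28.2. It was at 23.9, 22.0, 19.6, 17.8 and 31.1 in DEN_CAF, 25.3, 25.8, 18.9 and 15.4 in DEN_SOR and 29.2, 23.3, 22.6, 15.5 and 32.8 in DEN_CAF_SOR. Untreated 2 was the lowest Untreated liver and lay inside the range of DEN, DEN_CAF and DEN_CAF_SOR, while all 4 DEN_SOR livers lay below the 5 Untreated ones. That separation was seen for 4 of 30 members (Tm7sf2, Sc5d, Abcg8 and Abca1) and for 7.28% of all genes tested. Against Untreated, the DEN livers differed by -0.60 (SE 0.24, 95% interval -1.09 to -0.11, adjusted p = 0.196). Within the libraries numbered 3 and 4 alone the difference was -1.21 (adjusted p = 0.0541), and without them -0.30 (adjusted p = 0.46). With the replicate number as a block in the limma fit, Tm7sf2 was called (adjusted p = 0.0304), though the labels pair no mice by number. DEN 3 and 4 also held the highest tumour marker sums of the DEN group (214 and 1285 FPKM). Untreated 3 and 4 both held Xist reads (22879 and 29770, against 0 and 2 in DEN 3 and 4). Without DEN 4 the difference was -0.41. Without the 3 Untreated libraries with Xist reads it was -0.49 (adjusted p = 0.577 by limma). Tm7sf2 overlaps Vps51 on the same strand, so the assignment of reads between both genes is uncertain.

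Sc5d (chromosome 9, 42162891 to 42175552, GRCm39), the desaturase that introduces a ring double bond near the end of the pathway, was at 54.7, 37.0, 49.9, 71.5 and 60.0 FPKM in Untreated and in DEN from 15.2 to 103 with a median of 51.9. It was at 34.1, 32.7, 26.4, 22.8 and 70.0 in DEN_CAF, 20.3, 32.7, 22.8 and 13.5 in DEN_SOR and 57.2, 56.9, 15.6, 17.9 and 54.4 in DEN_CAF_SOR. All 4 DEN_SOR livers lay below the lowest Untreated liver, but DEN 1 was as low. DEN_CAF_SOR was split, with livers 3 and 4 low and the other 3 at 54.4 FPKM or higher. The difference of DEN_SOR from DEN was the largest of any member in any comparison between groups, -1.08 (SE 0.43, 95% interval -1.97 to -0.18), and was not called (adjusted p = 0.771). It was -1.38 without DEN 1 and -0.85 without DEN 2, and -1.21 within libraries 3 and 4 and -0.88 without them. DEN_CAF_SOR differed from DEN_SOR by 0.68 (SE 0.45, adjusted p = 1.00), and the interaction was 1.10 (SE 0.61, adjusted p = 0.992).

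Dhcr7, the reductase that completes cholesterol, was at 15.1, 12.3, 12.8, 13.3 and 14.4 FPKM in Untreated and in DEN from 7.42 to 34.4 with a median of 18.1. It was at 16.5, 13.5, 14.5, 11.5 and 30.7 in DEN_CAF, 18.9, 14.6, 11.9 and 8.74 in DEN_SOR and 20.1, 13.3, 10.7, 9.90 and 17.9 in DEN_CAF_SOR. Untreated livers lay within a narrow band, and DEN spread to both sides of it. DEN_CAF_SOR differed from DEN by -0.33 (SE 0.28, adjusted p = 1.00), and without DEN 4 by -0.15. The other 5 genes of these steps overlapped between all groups. Ebp, the sterol isomerase, was the most abundant enzyme (51.4 to 121 FPKM) and the least variable of the 8. Msmo1, the methyl sterol oxidase, ran from 11.9 to 51.4 FPKM, Cyp51, the lanosterol demethylase, from 11.3 to 44.9, Nsdhl from 6.89 to 36.0 and Hsd17b7 from 3.47 to 19.7, the last 2 being the dehydrogenase and the ketoreductase of demethylation.

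**Figure D3:**
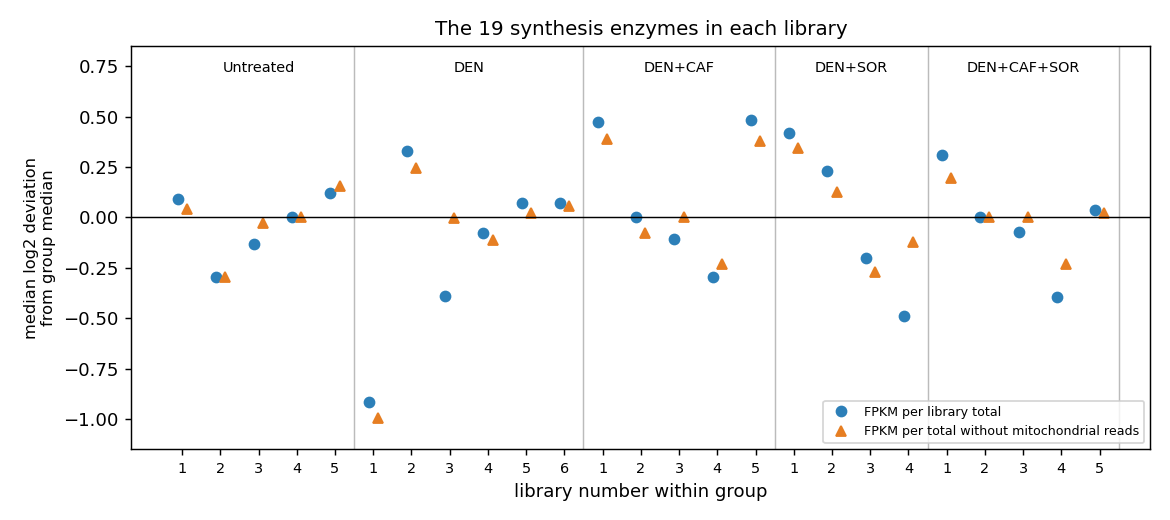
Median over the 19 synthesis enzymes of the log2 deviation from the group's median, for each library (x axis: number within group), with FPKM per library total (circles) and per total without mitochondrial reads (triangles). DEN 1 is lowest at -0.91 and -0.995, while DEN 3 and DEN_SOR 4 move towards 0 when mitochondrial reads are left out.

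The synthesis enzymes differed together between livers of one group. In DEN 1 all 19 enzymes lay below the median of the DEN group, 13 were the lowest of the group and 9 the lowest of all 25 libraries, with a median deviation of -0.91 on the log2 scale. The mitochondrial share of that library was 6.74%, and with mitochondrial reads left out of the total the deviation was -0.995. In DEN_SOR 4, 18 of 19 lay below the group median (-0.49), and in DEN 3, 15 of 19 (-0.39). These 2 libraries had mitochondrial shares of 34.8% and 33.4%, and without mitochondrial reads 14 and 10 enzymes lay below the median, with a deviation of -0.12 in DEN_SOR 4. At the other end, DEN_CAF 1 and DEN_SOR 2 had 18 enzymes above the group median, and DEN 2 and DEN_SOR 1 had 17. Without mitochondrial reads there were 16 in DEN_CAF 1, DEN 2 and DEN_SOR 1, and 15 in DEN_SOR 2. The same counts were not made over all genes. A shift of the whole library and one of the enzymes therefore cannot be told apart.

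The 20 DEN-exposed livers were also split by replicate number. Libraries numbered 3 and 4 had the lower median for 25 of 30 members, with a median ratio of 0.742 to the other 12 libraries, and for 63.3% of all genes tested, with a median ratio of 0.901. With mitochondrial reads left out, 18 of 30 members were lower, with a median ratio of 0.864, and 40.6% of all genes, with 1.07. Idi1 was at 1.30 to 3.71 FPKM in these 8 libraries and 1.97 to 13.9 in the other 12, a ratio of medians of 0.223, or 0.264 without mitochondrial reads. Insig2 had a ratio of 0.319, Sc5d of 0.425 and Hsd17b7 of 0.468, while Mvd (1.44), Abcg5 (1.30) and Ggps1 (1.20) were higher. No member separated the 8 from the 12 without overlap (0 of 30, beside 3.4% of all genes tested). The labels do not say what the number marks, and its part in these levels was not tested.

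The split by number bears on sorafenib. Within DEN, libraries 3 and 4 also had the highest tumour marker sums (214 and 1285 FPKM, against 4.95 to 23.5 in the others). In DEN_SOR the sums were 44.9 and 53.6 in libraries 3 and 4, and 28.6 and 24.8 in libraries 1 and 2. Leaving out or isolating these numbers thus does the same to the DEN livers high in tumour markers. The part of either was not tested. Without the libraries numbered 3 and 4, which leaves 2 DEN_SOR and 4 DEN livers, 20 of 30 members were higher in DEN_SOR than in DEN, with a median of 0.25 against an all-gene median of 0.00. Within libraries 3 and 4 alone, 2 livers each, 10 were higher, with a median of -0.22 against 0.02. No member was called in either (0 by limma, and 6 under an unadjusted p of 0.05 in each). The interaction of the drugs had a member median of -0.40 without these libraries and 0.17 within them.

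Among the 4 sensing genes, Scap (chromosome 9, 110162356 to 110214018, GRCm39) was at 21.5, 15.2, 20.8, 21.9 and 21.4 FPKM in Untreated 1 to 5, a mean of 20.1 ± 2.81 (SD, n = 5). In DEN it ran from 13.3 to 15.2 with a median of 14.0, a mean of 14.1 ± 0.66 (SD, n = 6). It was at 15.8, 17.0, 19.7, 20.6 and 12.0 in DEN_CAF, 17.0, 15.5, 17.0 and 13.9 in DEN_SOR and 16.8, 15.0, 13.3, 14.9 and 16.6 in DEN_CAF_SOR. In Untreated, 4 of 5 livers lay at 20.8 FPKM or higher, above all 6 DEN livers, and Untreated 2 lay at the top of the DEN range. DEN_CAF livers 3 and 4 lay just below these 4 Untreated livers. The difference of DEN from Untreated was -0.47 (95% interval -0.73 to -0.22, adjusted p = 0.0454), and -0.57 without Untreated 2 (adjusted p = 0.0185). The call held in 8 of 25 fits that each left out 1 library (Untreated 2, DEN 1, DEN_CAF 3, 4 or 5, DEN_SOR 1 or 4, or DEN_CAF_SOR 3) and was lost in the 17 that left out any other, with adjusted p up to 0.109 and the difference between -0.57 and -0.44. It was not called with mitochondrial reads left out (-0.41, adjusted p = 0.143) nor without the 3 Untreated libraries with Xist reads (-0.33, adjusted p = 0.437). The call was also lost with the replicate number as a block in the fit. Within libraries 3 and 4 the difference was -0.55, and without them -0.42, neither called. Untreated 3 and 4 are both among the libraries with Xist reads. Scap overlaps 5830462I19Rik on the opposite strand, and the strand setting of the counting is not given in the sources used here. DEN_CAF differed from DEN by 0.23 (SE 0.12, adjusted p = 1.00).

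**Figure D4:**
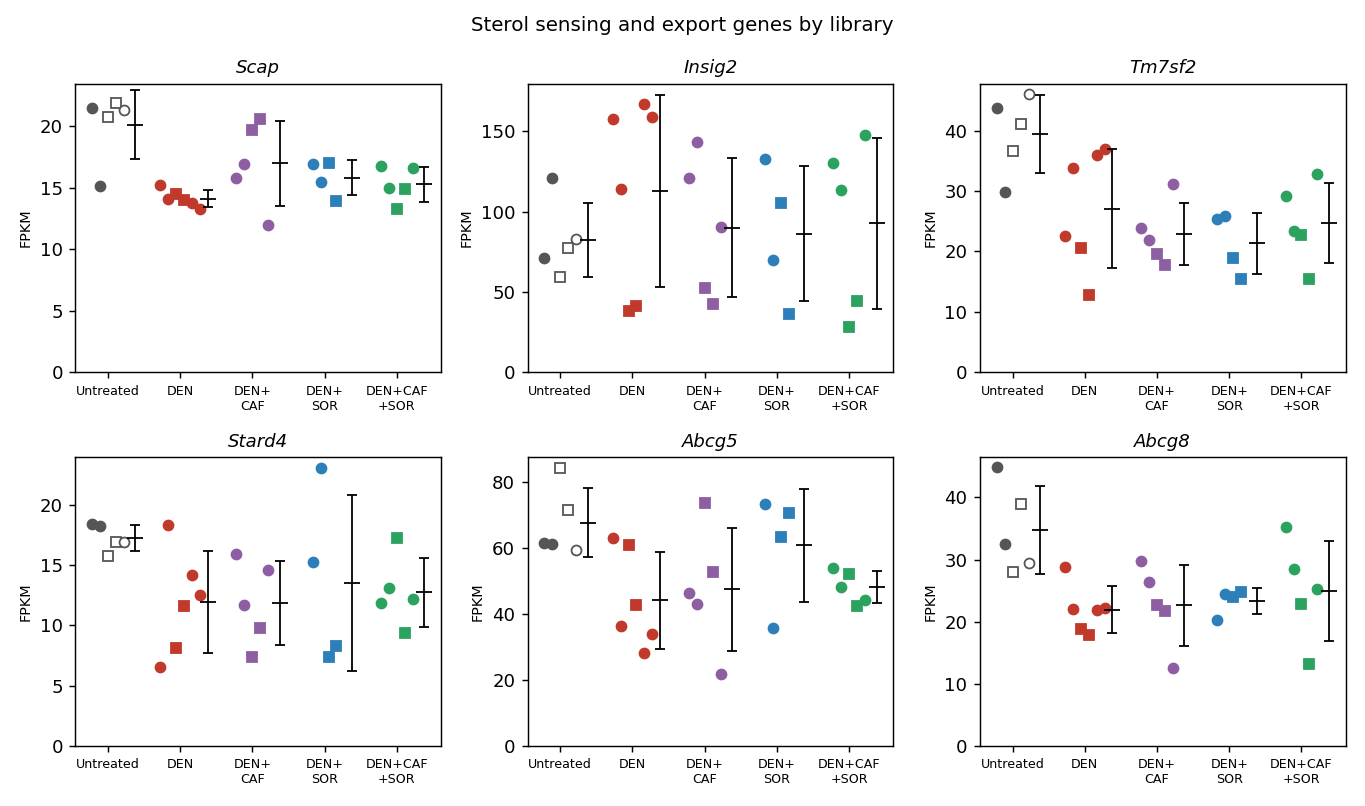
FPKM of 6 genes in each library (y axis, from 0) by group, with the mean and SD in black beside the points. Squares are libraries numbered 3 and 4 and open symbols are the Untreated libraries with Xist reads; for Scap 4 of 5 Untreated livers lie above every DEN liver, and for Insig2 the DEN livers numbered 3 and 4 lie at 37.8 and 41.4 FPKM, below the other 4.

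Srebf2, which encodes the transcription factor itself, was at 8.37, 6.62, 7.46, 7.58 and 9.04 FPKM in Untreated and in DEN from 6.53 to 9.52 with a median of 6.81. It was at 10.3, 7.34, 6.27, 6.38 and 9.89 in DEN_CAF, 11.4, 7.41, 6.51 and 5.49 in DEN_SOR and 8.46, 6.52, 8.26, 5.83 and 6.40 in DEN_CAF_SOR. All groups overlapped, and the highest and the lowest liver were both in DEN_SOR. DEN differed from Untreated by -0.08 (SE 0.16), with a 95% interval from -0.40 to 0.24.

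Insig1, the retention factor that SREBP2 itself induces, was at 75.2, 38.3, 78.0, 78.5 and 69.5 FPKM in Untreated and in DEN from 19.1 to 129 with a median of 58.3. It was at 63.2, 56.7, 27.9, 29.0 and 46.6 in DEN_CAF, 50.6, 97.7, 36.3 and 23.0 in DEN_SOR and 69.6, 66.7, 43.1, 28.4 and 59.1 in DEN_CAF_SOR. Untreated livers other than Untreated 2 were close together, and the DEN livers spread on both sides of them. The difference of DEN from Untreated was -0.24 (SE 0.39), with a 95% interval from -1.05 to 0.57.

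Insig2, the second retention factor, had the highest median of all 30 members per gene length, 90.3 FPKM. Its level was 71.1, 121, 59.5, 77.2 and 83.1 FPKM in Untreated and in DEN from 37.8 to 167 with a median of 136. It was at 121, 143, 52.3, 42.4 and 90.3 in DEN_CAF, 133, 70.0, 106 and 36.3 in DEN_SOR and 130.2, 114, 28.3, 44.4 and 148 in DEN_CAF_SOR. The DEN group fell into 4 livers at 114 FPKM or more and 2, DEN 3 and 4, at 37.8 and 41.4, and DEN_CAF_SOR divided the same way by number. DEN 3 and 4 also held the highest tumour marker sums of their group, which DEN_CAF_SOR 3 and 4 did not. In DEN the Insig2 level differed from Untreated by 0.25 (SE 0.47), with a 95% interval from -0.73 to 1.23. The clock genes Nr1d1 and Dbp, of the circadian clock that many liver sterol genes follow, summed to 27.3 to 133 FPKM in Untreated and 5.05 to 16.9 in DEN (2 of 2 detected in every group). Against a median of 8.47 in DEN, the medians were 30.8 in DEN_CAF (16.3 to 68.1), 84.6 in DEN_SOR (7.57 to 119) and 32.2 in DEN_CAF_SOR (14.0 to 75.3). Between Untreated and DEN, Nr1d1 did not overlap (25.4 to 62.7 against 3.28 to 15.9 FPKM). Dbp did, at 1.87 in Untreated 4 against 0.687 to 3.40 in DEN. Their part in the differences of any comparison was not tested.

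The 7 transport and storage genes had the lowest median of any role in DEN against Untreated, -0.44, with 6 lower, 1 higher, 3 under an unadjusted p of 0.05 and none called by limma (lowest adjusted p 0.118). Abcg5 (chromosome 17, 84965662 to 84990439, GRCm39) and Abcg8 (84983730 to 85007761) encode the partners of the dimer that secretes sterols into bile, share the interval printed above and overlap in the files' annotation on opposite strands, so without the strand of counting their shared reads cannot be told apart. Abcg5 was at 61.7, 61.3, 84.5, 71.7 and 59.6 FPKM in Untreated and in DEN from 28.0 to 63.2 with a median of 39.6. It was at 46.3, 43.1, 73.8, 52.8 and 21.8 in DEN_CAF, 73.6, 35.8, 63.4 and 70.7 in DEN_SOR and 54.0, 48.3, 52.3, 42.5 and 44.4 in DEN_CAF_SOR. In DEN, 4 of 6 livers lay below every Untreated liver, and DEN 1 and DEN 3 within their range. DEN differed from Untreated by -0.66 (SE 0.25, 95% interval -1.17 to -0.14, adjusted p = 0.18). This difference was -0.53 without the Untreated libraries that hold Xist reads (adjusted p = 0.562 by limma).

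Abcg8 was at 44.8, 32.6, 28.0, 38.9 and 29.5 FPKM in Untreated and in DEN from 17.8 to 28.8 with a median of 22.0. It was at 29.8, 26.4, 22.7, 21.7 and 12.5 in DEN_CAF, 20.2, 24.4, 23.9 and 24.8 in DEN_SOR and 35.2, 28.5, 22.8, 13.2 and 25.2 in DEN_CAF_SOR. Only DEN 1 among the 6 DEN livers reached into the Untreated range, and the 4 DEN_SOR livers lay below it. Compared with Untreated, DEN differed by -0.63 (SE 0.21, 95% interval -1.07 to -0.20, adjusted p = 0.118), not called by limma, while edgeR (-0.77, adjusted p = 0.0365) and DESeq2 (-0.75, adjusted p = 0.0161) called it. With the Untreated libraries that hold Xist reads left out, the limma difference was -0.79 (adjusted p = 0.278).

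Stard4, a soluble carrier of cholesterol between membranes, was at 18.4, 18.2, 15.7, 16.9 and 16.9 FPKM in Untreated and in DEN from 6.56 to 18.3 with a median of 12.1. It was at 15.9, 11.7, 7.37, 9.75 and 14.6 in DEN_CAF, 15.3, 23.1, 7.35 and 8.31 in DEN_SOR and 11.8, 13.1, 17.2, 9.36 and 12.2 in DEN_CAF_SOR. The Untreated livers were tightly grouped (17.2 ± 1.10, SD), and 5 of 6 DEN livers lay below them, the exception being DEN 2. The difference of DEN from Untreated was -0.57 (SE 0.25, 95% interval -1.09 to -0.04, adjusted p = 0.259). It was -0.65 without the Untreated libraries that hold Xist reads (adjusted p = 0.473 by limma).

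Abca1 (chromosome 4, 53030787 to 53159895, GRCm39), which loads cholesterol onto nascent HDL, was the only member whose DEN_SOR livers did not overlap those of DEN, 1 of 30, beside 0.699% of all genes tested. It was at 18.7, 20.04, 23.4, 21.9 and 16.1 FPKM in Untreated and in DEN from 16.0 to 25.7 with a median of 18.5. It was at 15.5, 21.6, 12.9, 16.0 and 18.5 in DEN_CAF, 14.4, 15.0, 12.9 and 9.05 in DEN_SOR and 15.7, 19.02, 10.9, 11.8 and 16.5 in DEN_CAF_SOR. All 4 DEN_SOR livers lay below all 6 DEN livers and all 5 Untreated livers, with 15.0 as the highest against 16.0 as the lowest of DEN, whereas DEN_CAF and DEN_CAF_SOR overlapped both. DEN_SOR differed from DEN by -0.56 (SE 0.17, 95% interval -0.92 to -0.20) and was not called (adjusted p = 0.579 by limma, 0.427 by edgeR and 0.0703 by DESeq2), in a comparison in which 0% of all genes were called. Within libraries 3 and 4 the difference was -0.72, without them -0.37, and without DEN_SOR 4 it was -0.41. DEN_CAF_SOR differed from DEN by -0.38 (SE 0.16, adjusted p = 1.00). Endothelial markers (5 of 5 detected in every group), a cell type that also carries ABCA1, summed to 7.83 to 27.1 FPKM in DEN_SOR and 18.6 to 40.4 in DEN. Singly, Pecam1 did not overlap between DEN_SOR and DEN (0.642 to 1.75 against 1.89 to 5.25 FPKM). Nor did Kdr (0.600 to 2.32 against 2.38 to 4.35), while Stab2, Lyve1 and Clec4g overlapped. Kupffer cell markers (6 of 6) summed to 49.1 to 121 in DEN_SOR and 20.9 to 99.4 in DEN. The highest sum, in DEN_SOR 1, included 29.0 FPKM of Marco, against 1.17 to 2.98 in the other DEN_SOR livers. The part of either cell type in the difference of Abca1 was not tested.

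**Figure D5:**
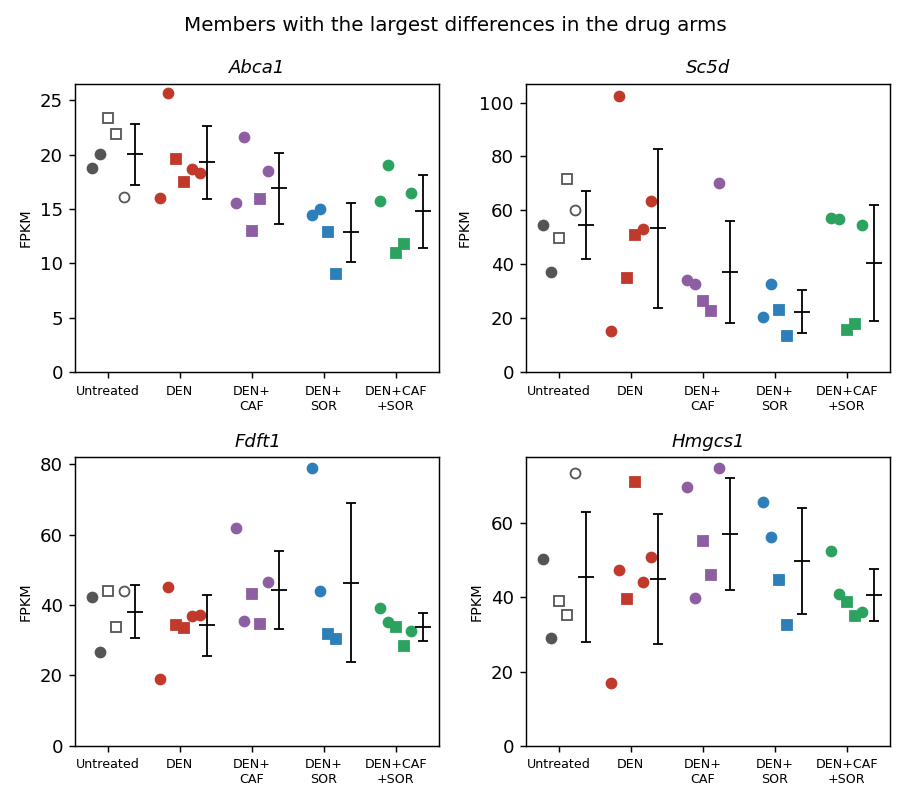
FPKM of Abca1, Sc5d, Fdft1 and Hmgcs1 in each library (y axis, from 0) by group, with mean and SD in black; squares are libraries numbered 3 and 4 and open symbols the Untreated libraries with Xist reads. For Abca1 the 4 DEN_SOR livers, at 9.05 to 15.0 FPKM, lie below the 6 DEN livers, and for the other 3 genes the DEN_SOR livers overlap those of DEN.

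Scarb1, the receptor that takes cholesterol from HDL, was at 20.9, 23.8, 11.5, 15.7 and 15.5 FPKM in Untreated and in DEN from 8.84 to 24.2 with a median of 14.8. It was at 17.0, 21.2, 10.8, 13.5 and 51.4 in DEN_CAF, 17.7, 17.6, 16.2 and 13.5 in DEN_SOR and 17.4, 10.7, 12.5, 11.3 and 13.2 in DEN_CAF_SOR. DEN_CAF 5 stood at more than 2 times any other liver. DEN_CAF_SOR differed from DEN_CAF by -0.56 (SE 0.29, adjusted p = 1.00), and without DEN_CAF 5 by -0.22. Within Untreated, the livers with Xist reads (11.5 to 15.7) lay below those without (20.9 and 23.8).

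Soat2, which esterifies cholesterol for storage and lipoprotein assembly, was at 30.1, 24.8, 72.1, 45.4 and 34.4 FPKM in Untreated and in DEN from 24.4 to 35.2 with a median of 26.2. It was at 25.1, 32.2, 64.9, 60.2 and 30.9 in DEN_CAF, 21.1, 14.3, 32.7 and 38.6 in DEN_SOR and 34.3, 27.6, 17.4, 28.7 and 31.2 in DEN_CAF_SOR. The 3 highest livers were Untreated 3 and DEN_CAF 3 and 4, and the other DEN_CAF livers lay within the DEN range. DEN_CAF differed from DEN by 0.49 (SE 0.28, 95% interval -0.10 to 1.07, adjusted p = 1.00) and without DEN_CAF 3 by 0.31, and DEN_CAF_SOR from DEN_CAF by -0.53 (SE 0.29, adjusted p = 1.00). Nr1h3, the liver X receptor of hepatocytes, was nearly flat (25.3 to 42.0 FPKM, within-group SD 0.18).

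Of 36 further genes of sterol metabolism outside the 30, 34 were tested and none was called by limma in any of the 7 comparisons. In DEN against Untreated 19 were higher and 15 lower, with a median of 0.03, and 4 had an unadjusted p under 0.05 (lowest adjusted p 0.19). The 7 genes of the isoprenoid branch there had a median of 0.12 and a lowest adjusted p of 0.531. The 5 liver X receptor partner and target genes had a median of -0.26, and the 5 further SREBP2-driven genes 0.02. In DEN_SOR against DEN 11 of 34 were higher and 23 lower, with a median of -0.06, and 1 had an unadjusted p under 0.05. In DEN_CAF against DEN 18 were higher and 16 lower, and none had one.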

How the data were processed

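RNA of 25 livers, each titled a separate mouse, was prepared with QIAzol, RNeasy columns and a SMARTer kit, per the labels' protocols. Reads were aligned with HISAT2 2.0.5 to GRCm39 and counted with featureCounts 1.5.0-p3, per the submitters' processing notes. The deposited values are a normalised signal: tables named FPKM by the authors held whole reads divided by 1 size factor per library, normalised separately in each of 5 tables, and 100% of values came out as whole reads (tolerance 0.01 read). The planned test assumed FPKM, so FPKM was recomputed from these reads, the library total and gene length.

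Differences were tested with limma 3.58.1 (R 4.3.3; Python 3.11.15 for tables) on log2(FPKM + 1), with all 25 libraries in 1 fit (20 residual degrees of freedom, trended variance), over 12741 genes with FPKM of at least 1 in at least 4 libraries, Benjamini-Hochberg adjustment and a threshold of 0.05. Counts recovered from the deposited values were tested with edgeR 4.0.16 and DESeq2 1.42.0 as alternatives, among 39 in all. The test was checked on simulated reads with known changes. These held no differences between libraries in mitochondrial share, Xist reads or number, so the check does not bear on those. The members and gene lists were chosen with earlier results of these data known. Values by library (for the 6 DEN livers the lowest, median and highest) were given for members called, for the 3 with the largest difference in each comparison and for 9 members fixed by name, some of which also met the other criteria. Library totals of 14750278 to 21992613 reads limit Fdps most (from 29 reads).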

Additional observations from a re-analysis of the deposited data

Results flagged for a closer look

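Of 150 sets of values (30 genes in 5 groups), 9 held a library that stood apart from the rest of its group by Dixon's test at the 95% level, which chance alone gives in about 1 in 20 sets. In DEN_CAF 5 there were 3: Sc5d was at 70.0 FPKM against 22.8 to 34.1 in the other 4 livers, Dhcr7 at 30.7 against 11.5 to 16.5, and Scarb1, the HDL receptor, at 51.4 against 10.8 to 21.2. In DEN_CAF 1, Mvd was at 27.2 FPKM against 9.28 to 12.5. Untreated 2 was low for both partners of sterol sensing, Insig1 at 38.3 FPKM against 69.5 to 78.5 and Scap at 15.2 against 20.8 to 21.9. In DEN 1, Mvk was at 4.28 FPKM against 8.45 to 10.5, and in DEN 2, Abca1 was at 25.7 against 16.0 to 19.6. In DEN_CAF_SOR 4, Msmo1 was at 15.9 FPKM against 26.3 to 28.8.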

How the results depend on the processing

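In DEN against Untreated, 1 member was called (Scap). edgeR on recovered reads called 2 (4.89% of all genes) and DESeq2 2 (8.55%), Scap and Abcg8 in both. The count was 0 with no filter on low values, 0 with mitochondrial reads left out, 0 with only the groups compared, 0 without the 3 Untreated libraries with Xist reads, 0 without the libraries numbered 3 and 4 and 0 with those libraries alone. Leaving out 1 library gave 0 to 1. In the other 6 comparisons 0 members were called under all 39 alternatives, edgeR and DESeq2 among them, and the test over 5 groups called 0 except with DESeq2, 3 (6.2% of all genes). The median interaction moved from 0 to -0.40 without the libraries numbered 3 and 4, and the other medians moved by less than the spread between libraries.

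With a replicate block, 1 member was called in DEN against Untreated, Tm7sf2 (-0.70, adjusted p = 0.0304), and Scap was not (-0.46, adjusted p = 0.0702). The numbers pair no mice by label: 25 of 46 pairs with the same number correlated above 0.1, and 7 of 25 libraries correlated best with their own number.

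Over all genes, 260 calls in DEN against Untreated became 839 with edgeR, 1624 with DESeq2, 437 with TMM scaling, 477 with the number as a batch term, 504 in the libraries numbered 3 and 4, 160 without them, 126 with only the groups compared and 34 without the Untreated libraries that hold Xist reads. The 121 calls of the test over 5 groups became 418, 1207 and 5 with edgeR, DESeq2 and without the libraries with Xist reads. The causes were not tested. Depth limits Fdps, with as few as 29 reads.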
